A study of Mus musculus with 18 samples.

Results

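The interaction of genotype and maturation in medullary thymic epithelial cells (mTEC) asks for each gene whether the difference between Aire-deficient (KO) and wild-type (WT) cells is the same in the mTEChi gate as in the mTEClo gate. It was computed as KO minus WT in mTEChi, less KO minus WT in mTEClo, on log2(RPKM + 0.1). RPKM is the number of aligned bases on a gene scaled by its length and by the library's total. A gene was tested if 3 or more of the 12 mTEC libraries held it at 0.1 RPKM or above, which left 19331 of the 23063 genes in the tables. Another 2837 genes were above 0 RPKM in at least 1 of these libraries but under that filter, and 895 were listed at 0 in all 12.

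The series measured RNA from sorted thymic epithelial cells of WT and KO mice aged 6 to 8 weeks, and 12 of its 18 libraries enter the interaction. These are WT mTEChi, KO mTEChi, WT mTEClo and KO mTEClo, with 3 libraries each. The remaining 6 libraries, from cortical cells (cTEC) of both genotypes, are used below as libraries outside the contrast. Every sample, WT included, carries the strain label of the Aire mutant line, B6.129S2-Airetm1.1Doi/J. The labels name thymus and flow cytometry, but not the protein behind the lo and hi gates, and do not say whether replicates came from separate mice. The p-values therefore measure only the spread between these libraries.

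Aire is a transcriptional regulator that raises, in mature mTEC, the transcription of many genes otherwise expressed in peripheral tissues, so that developing T cells meet those proteins in the thymus. Mature mTEC carry much MHC class II and costimulatory protein, and the less mature gate also holds progenitors, chemokine-producing cells and cells that have passed the Aire-expressing stage, such as tuft and keratinocyte-like cells. A negative interaction estimate means that the KO minus WT difference was lower in mTEChi than in mTEClo. It can arise from a fall in KO mTEChi, a rise in KO mTEClo or both. Many estimates are therefore given here with both differences or with the levels in both gates. Where an estimate stands alone, the gate it came from is not shown.

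Depth ran from 4.54 to 18.1 Gb of aligned bases per library, and both extremes were WT mTEClo libraries. Within the groups, libraries correlated across genes at a Spearman rho of 0.986 to 0.992. The gates matched their names in the WT. Of the marker lists used here, 14 mature mTEC genes had a median of 1.87 for mTEChi minus mTEClo, MHC class II genes one of 1.32, and 11 immature mTEC and progenitor genes one of -2.18. Fewer cells of a type and less RNA per cell cannot be told apart in these bulk libraries.

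The promoters of the genes with the largest fall, the largest rise and the smallest p-value among the rises are shown to identify the loci on which the first results turn. Each run is the 250 bases before the start site, 5′ to 3′, from RefSeq's GRCm38.p6, with every CG dinucleotide in capitals. Crisp3 lies at chr17:40242289-40242538, Igj at chr5:88527898-88528147 and Calcrl at chr2:84425267-84425516, all on the minus strand.
Crisp3: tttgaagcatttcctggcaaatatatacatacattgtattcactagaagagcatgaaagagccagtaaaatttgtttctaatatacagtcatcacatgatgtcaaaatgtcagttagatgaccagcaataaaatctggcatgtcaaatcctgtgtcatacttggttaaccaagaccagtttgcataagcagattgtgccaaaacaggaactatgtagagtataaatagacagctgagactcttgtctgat
Igj: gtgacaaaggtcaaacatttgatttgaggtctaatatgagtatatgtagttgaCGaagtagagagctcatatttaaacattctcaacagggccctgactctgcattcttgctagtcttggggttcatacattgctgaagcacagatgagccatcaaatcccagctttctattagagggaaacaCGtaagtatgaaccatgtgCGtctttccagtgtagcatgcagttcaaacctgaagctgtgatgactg
Calcrl: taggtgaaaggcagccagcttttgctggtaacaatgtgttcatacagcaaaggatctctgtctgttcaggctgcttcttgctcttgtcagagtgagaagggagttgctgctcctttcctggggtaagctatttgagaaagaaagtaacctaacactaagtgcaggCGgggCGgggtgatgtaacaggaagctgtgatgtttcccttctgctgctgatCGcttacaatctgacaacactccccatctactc
The Crisp3 run holds 0 CG dinucleotides, and the Igj and Calcrl runs hold 3 each. Among the 32851 promoters of the RefSeq table, 7.87% hold none and 37.8% hold at most 3, with a median of 6. The letters TATAAA, on either strand, stand between 50 and 11 bases before the start site in the Crisp3 run only, and in 3.15% of those 32851 promoters. These are matches of letters and not measured sites.

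Aire itself was not called in the interaction. The table's value does not separate the deleted part of the gene and so does not check the genotype labels. Aire was at 658, 681 and 693 RPKM in WT mTEChi and 1126, 1001 and 1091 in KO mTEChi, against 7.75, 9.13 and 12.8 in WT mTEClo and 33.1, 21.5 and 16.3 in KO mTEClo. In both gates the KO libraries were all above the WT libraries. The estimate was -0.55 (SE 0.31, adjusted p = 0.15). It was called at -0.94 under quantile normalization, at -0.79 without KO mTEClo replicate 3 and at -0.75 without WT mTEClo replicate 3.

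The genotype difference depended on the gate for a large share of genes, and mostly in the negative direction. Of the genes tested, 9186 were called lower (47.5%) and 1642 higher (8.49%) by limma with a Benjamini-Hochberg adjusted p under 0.05. Changes of at least 2-fold made up 5647 of the lower and 315 of the higher calls. The median over all tested genes was -0.38. Quantile normalization, which makes the libraries' distributions alike, moved that median to 0.08 and the calls to 4170 lower and 5532 higher, so that lower calls were 43% of all calls instead of 84.8%. It kept 4088 of the lower and 1603 of the higher calls, and 268 genes called lower became called higher. The directions of the called interactions of the genes named below held under each scaling tried unless stated, the sizes are to be read against the median of all genes, and counts of list members within a gate are on the deposited scale.

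Most of the lower calls had their difference in mTEChi. Called-lower genes had a median KO minus WT of -1.23 in mTEChi and 0.00 in mTEClo, and a median level of 3.25 RPKM in WT mTEChi against 0.96 in KO mTEChi. Of these 9186 genes, 6334 (69.0%) were lower in KO mTEChi with no call in mTEClo, 1037 were lower in both gates, and 997 (10.9%) were lower in mTEChi and higher in mTEClo. A further 577 were higher in KO mTEClo with no call in mTEChi. Over all tested genes, KO minus WT gave 11103 lower (57.4%) and 2316 higher (12%) in mTEChi, and 2746 lower (14.2%) and 2559 higher (13.2%) in mTEClo. The count of genes lower in mTEClo was 1804 without WT mTEClo replicate 3.

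The genotype differences in the gates come from separate libraries, so their calls can be set side by side. Genes called lower in both gates were 2023. They are 18.2% of those lower in mTEChi, against 14.2% of all tested genes lower in mTEClo. They are 73.7% of those lower in mTEClo, against 57.4% of all tested genes lower in mTEChi. Genes lower in mTEChi and higher in mTEClo were 9.0% of those lower in mTEChi, against 13.2% of all tested genes higher in mTEClo. They were 39.0% of those higher in mTEClo, below the 57.4% of all tested genes lower in mTEChi. The opposite combination, higher in mTEChi and lower in mTEClo, held for 213 genes (1.10% of all tested genes).

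**Figure D1:**
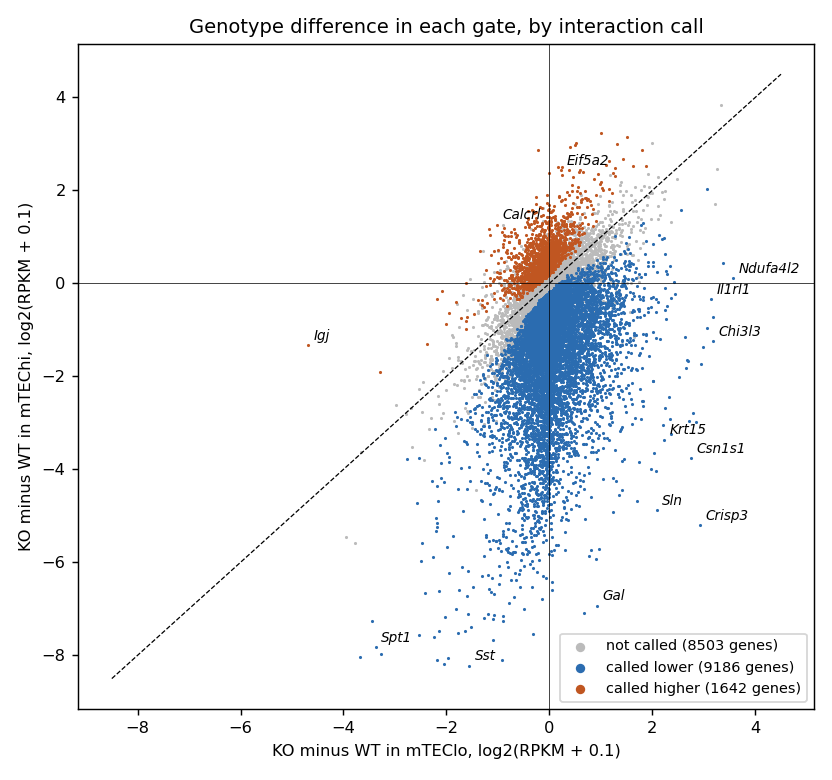
KO minus WT in mTEClo (x axis) against KO minus WT in mTEChi (y axis), both on log2(RPKM + 0.1), for the 19331 tested genes, coloured by interaction call; the dashed line marks equal differences. The 9186 genes called lower spread below the line down to about the level of Crisp3 and Gal, and the 1642 called higher form a narrower band above it.

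Looked at from the side of maturation, the same contrast is the mTEChi minus mTEClo difference in KO less that in WT. In WT, 8471 genes (43.8%) were higher and 6537 (33.8%) lower in mTEChi than in mTEClo, against 4845 (25.1%) higher and 8939 (46.2%) lower in KO. Of the 9186 genes with a negative interaction, 2746 (29.9%) were higher in mTEChi in WT and not called in KO, and 1031 (11.2%) were higher in mTEChi in WT and lower in KO. Another 1275 were higher in mTEChi in both genotypes, and 2664 lower in both. Of the 1642 genes with a positive interaction, 752 (45.8%) were higher in mTEChi in both genotypes, and 135 were lower in mTEChi in WT and higher in KO.

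The 4 groups also show which of them stands apart. Among the called-lower genes, the 3 WT mTEChi libraries lay above all 9 others for 4382 genes (47.7%, against 26.6% of all tested genes), and the 3 KO mTEChi libraries lay below all others for 4331 (47.1%, against 32.6%). KO mTEClo lay above all others for 1051 of them (11.4%, against 6.86%), and WT mTEClo below all others for 569 (6.19%, against 6.95%). Among the called-higher genes, KO mTEChi lay above all 9 other libraries for 996 (60.7%, against 10.5% of all genes) WT mTEChi below them for 300 (18.3%, against 2.69%) and KO mTEClo below them for 242 (14.7%, against 3.81%). These counts describe the called genes and are no further test of them.

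The share of lower calls differed with the level in mTEClo, in a way that the filter in large part sets. With a mean under 0.1 RPKM over the 6 mTEClo libraries, 2165 of 2810 genes (77.0%) were called lower and 53 higher. Of these 2810 genes, 2678 (95.3%) reached 0.1 RPKM in fewer than 3 mTEClo libraries and so passed the filter only with the help of mTEChi libraries. Of the 2810, 1903 (67.7%) passed it through WT mTEChi, reaching 0.1 RPKM in all 3 of its libraries and in fewer than 3 of KO mTEChi and of mTEClo. Such genes were selected for a high level in WT mTEChi, and nothing is read from their share of lower calls. From 10 to 100 RPKM, 38.9% of 6179 genes were lower and 12.8% higher. For 1958 of the called-lower genes both mTEClo means were under 0.1 RPKM, where the added 0.1 leaves little room for a difference in mTEClo. The estimate for such a gene is in effect its difference in mTEChi.

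**Figure D2:**
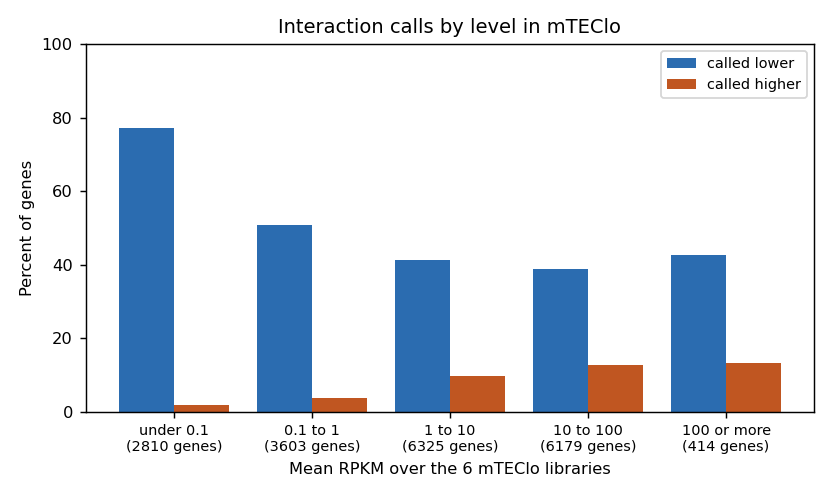
Percent of tested genes called lower (blue) and higher (orange) in the interaction, by mean RPKM over the 6 mTEClo libraries, with the number of genes under each pair of bars. Lower calls go from 77.0% under 0.1 RPKM to 38.9% from 10 to 100 RPKM, and higher calls from 1.89% to 12.8%; the filter itself favours lower calls in the lowest bin, where 67.7% of genes passed it through WT mTEChi.

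The number of detected genes fell in KO mTEChi, with little difference in mTEClo. At least 0.1 RPKM was reached by 19428 to 19558 genes in WT mTEChi and by 16428 to 16512 in KO mTEChi. The ranges in mTEClo overlapped, with 16299 to 16424 genes in WT and 16290 to 16492 in KO. The interaction was -3017 genes (two-sided exact permutation of genotype within gates over 400 relabelings, p = 0.065). It was -1700 genes above 0 RPKM (exact permutation p = 0.08) and -2516 at 1 RPKM (exact permutation p = 0.015). Since the genotypes hardly differed in mTEClo, relabeling that gate alone leaves the value near the one observed, and the p-values mostly reflect the spread in mTEClo.

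Crisp3, which encodes a cysteine-rich secretory protein of exocrine glands, had the most negative estimate and changed sign between the gates. It was at 5.20, 7.60 and 5.96 RPKM in WT mTEChi and at 0.00718, 0.180 and 0.0652 in KO mTEChi. In mTEClo it was at 0.156, 0.0503 and 0.149 in WT and at 0.713, 1.92 and 2.49 in KO. WT was the higher genotype in every mTEChi library and KO in every mTEClo library. The differences were -5.20 and 2.93, and the interaction was -8.13 (SE 0.61, adjusted p = 8.2e-07).

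Sln, the gene of sarcolipin, an inhibitor of the muscle calcium pump, showed the same order of groups. It was at 4.49, 2.98 and 3.17 RPKM in WT mTEChi, 0.0223, 0.0489 and 0 in KO mTEChi, 0.885, 1.47 and 0.847 in WT mTEClo and 5.19, 4.80 and 4.24 in KO mTEClo. KO mTEClo overlapped WT mTEChi, and the genotypes did not overlap within either gate. Its interaction was -6.96 (SE 0.33, adjusted p = 5.6e-08). Csn1s1, which encodes a casein of milk, was at 7.30, 6.89 and 6.18 RPKM in WT mTEChi and 0.228, 0.542 and 0.520 in KO mTEChi. In mTEClo it went the other way, from 1.40, 1.35 and 0.648 in WT to 7.25, 8.74 and 7.37 in KO. No library overlapped between genotypes in either gate, and the interaction was -6.50 (SE 0.40, adjusted p = 2e-07).

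Dlk1, a ligand-like protein of the Notch family, and Pyy, the gut hormone peptide YY, met the same rule but less firmly in mTEClo. Their interactions were -6.84 and -6.66. Their mTEClo differences were 0.90 and 0.96. That of Pyy lost its call with the replicate number as a block, with a pseudocount of 0.01, with no filter, under quantile normalization (0.78), when centred on housekeeping genes (0.85), with all 18 libraries and without a variance trend. It also lost it without any 1 of 9 libraries, the exceptions being KO mTEChi replicates 2 and 3 and WT mTEClo replicate 2, when it ranged from 0.71 to 1.06. That of Dlk1 lost it with a pseudocount of 1 (0.25), with all 18 libraries, and without KO mTEClo replicate 1 (0.88) or 2 (0.75), or WT mTEClo replicate 2 (0.63) or 3 (0.85). Among the 6 smallest p-values of the lower genes, Grp, which encodes gastrin-releasing peptide, also changed sign. It was at 50.8, 51.6 and 49.5 RPKM in WT mTEChi, 17.5, 18.9 and 18.4 in KO mTEChi, 30.8, 30.8 and 33.5 in WT mTEClo and 68.9, 69.4 and 62.3 in KO mTEClo. The narrow spread within each group gave an SE of 0.08 for its interaction of -2.54 (adjusted p = 1.8e-08).

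**Figure D3:**
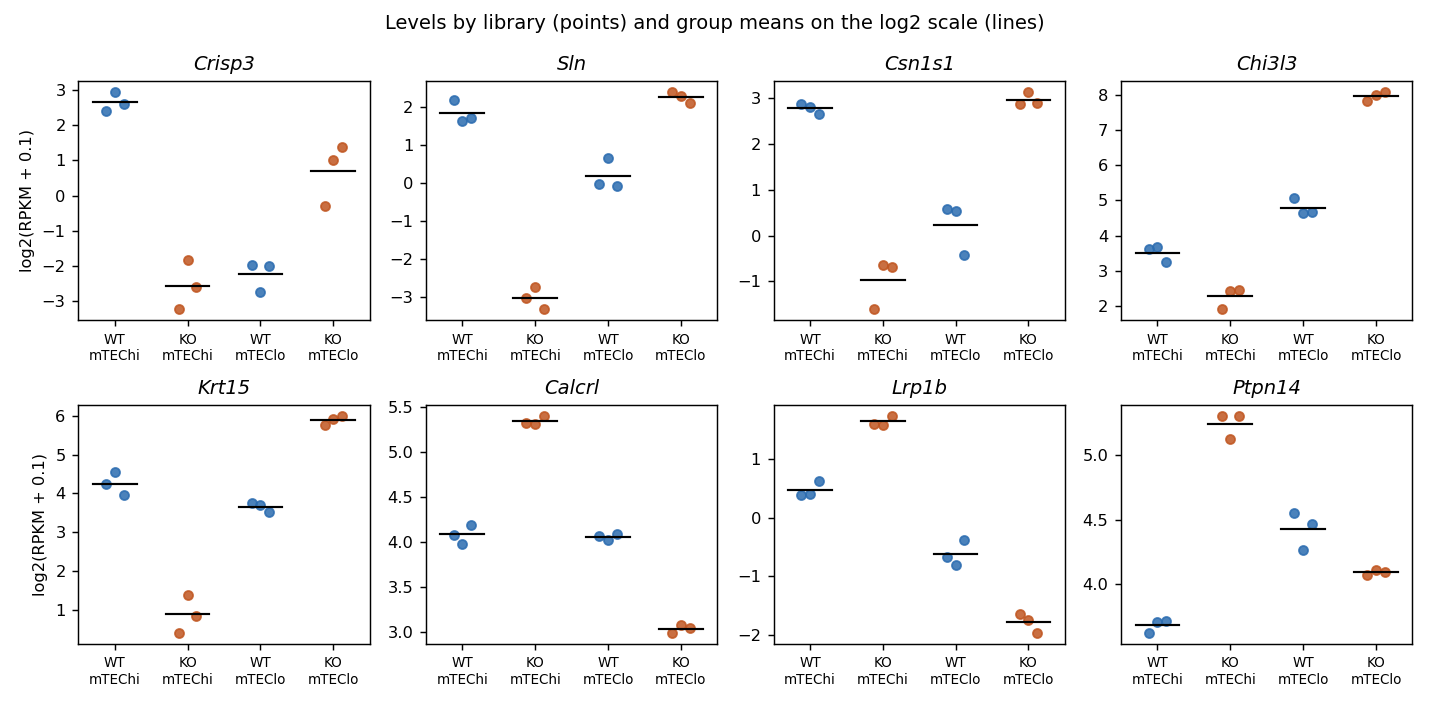
Level of 8 genes as log2(RPKM + 0.1) in each of the 12 libraries, with WT in blue, KO in orange and the group mean as a line; y axes differ between panels. In Crisp3, Sln, Csn1s1, Chi3l3 and Krt15 the KO points lie below WT in mTEChi and above WT in mTEClo, and in Calcrl, Lrp1b and Ptpn14 above WT in mTEChi and below WT in mTEClo.

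The other most negative estimates came from loss in KO mTEChi of genes that mTEClo held at a low level in both genotypes. Gal, the gene of the neuropeptide galanin, was at 33.4, 47.8 and 38.0 RPKM in WT mTEChi and at 0.136, 0.321 and 0.239 in KO mTEChi. It ranged from 0.178 to 1.05 RPKM in WT mTEClo and from 0.569 to 1.48 in KO mTEClo, so that only mTEChi separated the genotypes (interaction -7.85, SE 0.65, adjusted p = 1.6e-06). Krt13, a keratin of moist stratified epithelia, was at 16.0 to 23.6 RPKM in WT mTEChi and at most 0.00946 in KO mTEChi, with all 6 mTEClo libraries between 0.141 and 0.440 (interaction -7.23). Hbb-y, an embryonic globin, was at 9.61 to 16.3 RPKM in WT mTEChi and listed at 0 in every KO mTEChi library (interaction -7.77). Cytl1, Sst, Myoc, Trh and Klk5 complete the 12 largest falls, with estimates between -7.17 and -6.63.

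Sst, which encodes somatostatin, was unusual among these for its spread in mTEClo. It was at 14.5, 1.91 and 4.22 RPKM in WT mTEClo and at 0.0660, 7.18 and 4.02 in KO mTEClo, which overlapped, against 29.7 to 33.0 in WT mTEChi and at most 0.0118 in KO mTEChi. Its interaction of -6.67 had an SE of 1.57 (adjusted p = 0.0033). Alppl2, an alkaline phosphatase, Gkn2, a gastrokine of the stomach lining, Fga, the fibrinogen alpha chain, and Avp, which encodes vasopressin, had among the smallest p-values. Their WT mTEChi libraries were at 2.89 RPKM or more and their KO mTEChi libraries at most 0.00419. As KO mTEChi was under 0.1 RPKM, WT mTEChi by itself met the filter for them. Nothing is read from their p-values where mTEClo was also under 0.1 RPKM. For Gkn2 and Fga the mTEClo differences were -0.12 and -0.01, so the estimates are nearly the mTEChi differences of -6.30 and -4.89. Engase, a cytosolic glycosidase, differed from Alppl2, Gkn2, Fga and Avp in being higher in mTEClo. It was at 20.4 to 21.5 RPKM in WT mTEClo and 28.2 to 30.0 in KO mTEClo, but at 8.65 to 9.50 in WT mTEChi and 3.22 to 3.27 in KO mTEChi (interaction -1.92, SE 0.07, adjusted p = 2.2e-08).

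Some negative interactions came, on the deposited scale, mainly from KO mTEClo. Among genes with a KO minus WT difference under 0.5 in mTEChi, Ndufa4l2, a homologue of a mitochondrial respiratory chain protein, had the largest rise in mTEClo. It was at 0.391, 0.243 and 0.341 RPKM in WT mTEClo and at 4.37, 4.93 and 5.52 in KO mTEClo, while both mTEChi groups ranged between 0.532 and 1.05 and overlapped. The mTEClo difference was 3.58 and the interaction -3.46 (SE 0.33, adjusted p = 4.6e-06). Under quantile normalization Ndufa4l2 was also higher in KO mTEChi, by 1.79 (adjusted p = 4.7e-05). Il1rl1, the receptor of interleukin 33, was at 0.339, 0.368 and 0.129 RPKM in WT mTEClo and 2.71, 3.22 and 3.41 in KO mTEClo. Its mTEChi libraries lay at 1.77 to 2.13 in WT and 1.41 to 1.61 in KO, a difference of -0.33 that was 0.81 under quantile normalization. Olfr960, Grxcr2 and Ctnna2 were the other genes of this kind, with mTEClo differences of 3.37, 2.42 and 2.37, and under quantile normalization Olfr960 and Grxcr2 lost their interaction calls and were higher in KO mTEChi, by 1.60 and 1.30. The mTEChi difference of Ctnna2 turned to 0.71 there.

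In the opposite direction, mTEClo falls with little change in mTEChi were led by Gpr128, an adhesion receptor. It was at 2.18, 3.94 and 1.70 RPKM in WT mTEClo and 0.966, 1.08 and 0.649 in KO mTEClo, with no overlap, and at 24.1 to 28.2 and 18.7 to 22.4 in WT and KO mTEChi. Its interaction of 1.02 was not called with a pseudocount of 1 (0.54), with all 18 libraries in the fit (1.02), or without KO mTEChi replicate 3 (0.97), KO mTEClo replicate 3 (0.83) or WT mTEChi replicate 1 (0.94). Islr, Golm1, Ifltd1 and Tspan4 had mTEClo differences from -1.31 to -1.22. The mTEChi differences of Islr, Golm1 and Tspan4 were -0.47, -0.37 and -0.42 on the deposited scale and turned positive under quantile normalization. That of Ifltd1 was 0.29 on the deposited scale and 2.05 under quantile normalization, where it was called.

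The rises were smaller than the falls, and many came from a higher level in KO mTEChi. Calcrl, the receptor subunit for calcitonin gene-related peptide and adrenomedullin, had the smallest p-value among them. It was at 16.8, 15.7 and 18.1 RPKM in WT mTEChi and 39.8, 39.7 and 42.2 in KO mTEChi, against 16.6, 16.1 and 16.9 in WT mTEClo and 7.83, 8.33 and 8.13 in KO mTEClo. The WT groups overlapped each other, and the KO groups lay above them in mTEChi and below them in mTEClo. The interaction was 2.29 (SE 0.08, adjusted p = 2.2e-08).

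Lrp1b, a large receptor of the low density lipoprotein receptor family, was at 1.2, 1.22 and 1.44 RPKM in WT mTEChi and 2.94, 2.89 and 3.24 in KO mTEChi. In mTEClo it was at 0.527, 0.471 and 0.670 in WT and 0.221, 0.197 and 0.156 in KO. The genotypes did not overlap in either gate, and the interaction was 2.34 (SE 0.23, adjusted p = 5.6e-06). Lingo1, a membrane protein of neurons, Dcn, the matrix proteoglycan decorin, and Ptpn14, a protein tyrosine phosphatase, also rose in KO mTEChi and fell in KO mTEClo, with interactions of 2.04, 1.92 and 1.91.

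Igj had the most positive estimate, and it came from the other gate. This gene encodes the joining chain of polymeric immunoglobulins and is a marker of plasma cells. It was at 5.76, 5.04 and 10.5 RPKM in WT mTEClo and 0.123, 0.238 and 0.152 in KO mTEClo, and at 4.04, 2.29 and 3.53 in WT mTEChi and 2.16, 1.65 and 0.467 in KO mTEChi. KO was below WT in both gates, by 4.68 in mTEClo and 1.33 in mTEChi on the log2 scale, which gave an interaction of 3.35 (SE 0.64, adjusted p = 8.1e-04). The markers of B and plasma cells as a list summed to 29.3 to 34.7 RPKM in WT mTEClo and 33.3 to 39.9 in KO mTEClo, with none of the 11 at 0 throughout a group. In mTEClo 4 of the 11 were called lower, Igj among them, and 1 higher, against 14.2% and 13.2% of all tested genes. In the interaction 3 were called higher (27.3%, against 8.49% of all tested genes) and 4 lower (36.4%, against 47.5%). The count of lower calls was 2 without WT mTEClo replicate 1 or 2. The part of such cells in this result was not tested.

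Eif5a2, an isoform of a translation factor, was called in mTEChi and not in mTEClo. It was at 3.99, 3.8 and 3.89 RPKM in WT mTEChi and 21.7, 21.2 and 21.8 in KO mTEChi, and at 2.21 to 3.0 in all 6 mTEClo libraries. Its interaction was 2.21 (SE 0.14, adjusted p = 2.2e-07). Klhl3, Ptchd4, Tnfaip8l3, Gltpd2 and Il12rb1, the last a chain of the interleukin 12 receptor, had estimates from 1.96 to 2.38. The defensin gene Defb33 and the olfactory receptor gene Olfr1138, at 2.34 and 2.53, were not called with 0.01 added in place of 0.1. Smaller estimates with very small p-values were those of Sp100 (1.60), Sp140 (1.23), Rad50 (1.37), Lrch1 (1.24) and Plekha4 (1.87). Sp100 and Sp140 encode nuclear body proteins with the SAND domain that Aire also carries, and Rad50 a subunit of a DNA break repair complex. Reads that near-identical copies share cannot be split in these tables, which bears on Sp100.

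All tested tuft cell genes were called lower, 16 of 16 against 47.5% of all tested genes. Their median was -1.65 against -0.38 for all genes. Tuft cells are chemosensory epithelial cells that also occur in the thymic medulla. The median KO minus WT was 1.09 in mTEClo and -0.61 in mTEChi. Of the 16, 7 were called higher in mTEClo and lower in mTEChi, against 5.16% of all tested genes. In mTEClo, 14 of the 16 rose and none fell, against 13.2% and 14.2% of all tested genes. Under quantile normalization 14 remained called in the interaction, with a median of -1.51, where 4170 of the 19331 tested genes were called lower.

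Summed over the list, tuft genes stood at 633 to 1392 RPKM in WT mTEClo and 1981 to 2169 in KO mTEClo, which did not overlap. In mTEChi the sums were 185 to 354 in WT and 138 to 199 in KO, which did. Pou2f3, the transcription factor on which tuft cells depend, was at 30.4, 47.6 and 21.3 RPKM in WT mTEClo, 65.9, 73.4 and 66.1 in KO mTEClo, 20.6, 25 and 22.5 in WT mTEChi and 14.8, 16.8 and 15.6 in KO mTEChi. The genotypes were apart in both gates (interaction -1.65, SE 0.29, adjusted p = 5.3e-04). Dclk1, a kinase that marks tuft cells, and Tas2r108, a bitter taste receptor, gave -2.08 and -2.23. For Dclk1 the highest WT mTEClo library, at 53.5 RPKM, lay below the lowest KO mTEClo library, at 60.4.

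**Figure D4:**
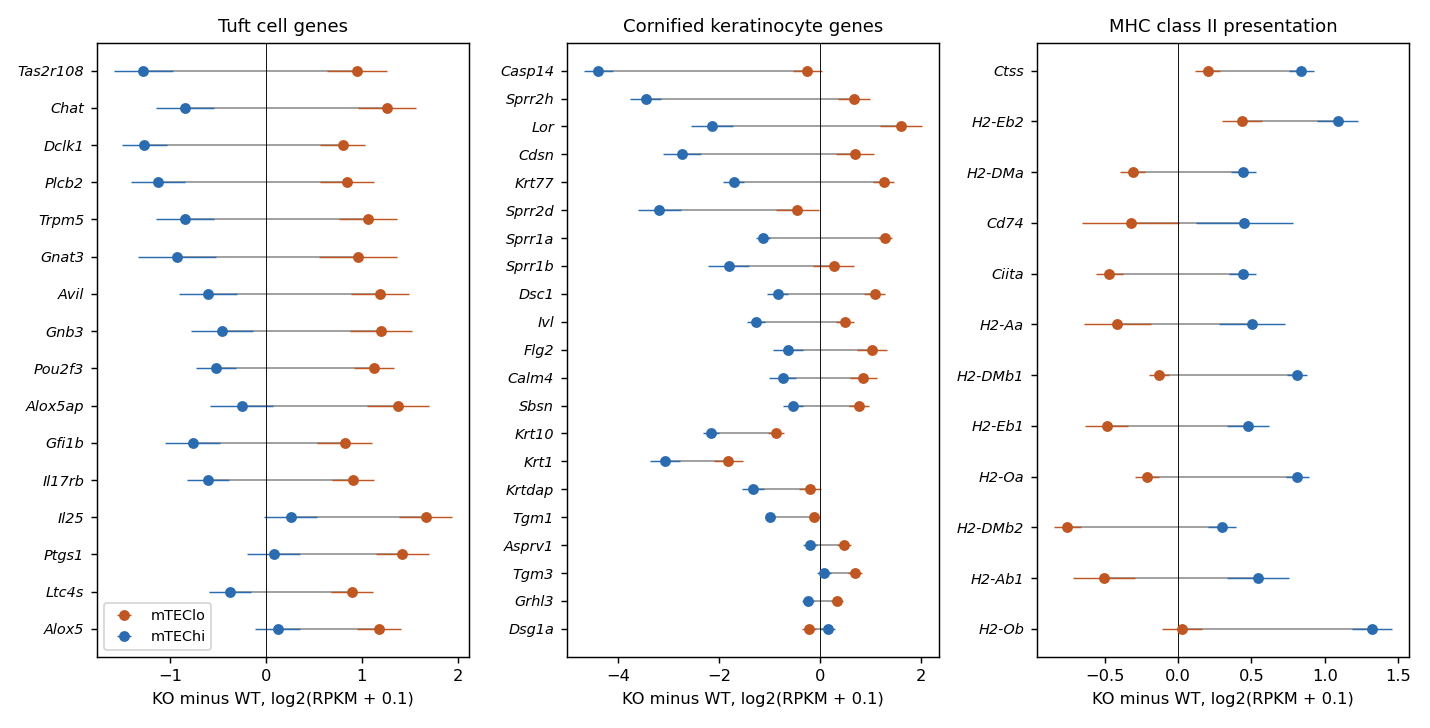
KO minus WT in mTEClo (orange) and in mTEChi (blue) on log2(RPKM + 0.1), with bars of 1 SE from the fit, for the tested tuft cell genes (16), cornified keratinocyte genes (21) and MHC class II presentation genes (12). The orange points lie right of the blue ones for all tuft genes and left of them for all MHC class II genes, and the distance between the points of a gene is its interaction estimate.

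Cornified keratinocyte genes, which build the barrier of the skin, gave 20 of 21 called lower (95.2%, against 47.5% of all tested genes). None was called higher, and the median was -1.67. The median difference was -1.27 in mTEChi and 0.51 in mTEClo. In mTEClo 9 rose and 2 fell, against 13.2% and 14.2% of all tested genes. Sprr1a, a precursor of the cornified envelope, was at 60.9, 79.5 and 74.6 RPKM in WT mTEClo and 198, 175 and 156 in KO mTEClo. In mTEChi it was at 129.9, 139 and 105 in WT and 52.9, 65.8 and 52.3 in KO, so the order of genotypes reversed between the gates (interaction -2.42, SE 0.19, adjusted p = 1.3e-06). Krt77, a keratin of the skin, did the same with -2.98. Casp14, a protease of keratinocyte differentiation, fell in mTEChi only, from 4.41, 3.20 and 6.06 RPKM to 0.0503, 0.172 and 0.138, and its interaction was -4.15. Dsg1a, a desmosomal cadherin and the only tested member without a call, stood at 0.37 (adjusted p = 0.15). It was called at 0.59 when centred on housekeeping genes and at 0.54 with median ratio scaling. Quantile normalization left 16 of the 21 called lower, against 4170 of the 19331 tested genes.

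MHC class II presentation went in the opposite direction. Of 12 tested genes 11 were called higher (91.7%, against 8.49% of all tested genes) and none lower (against 47.5%). Their median was 0.93. The median difference was 0.52 in mTEChi and -0.32 in mTEClo. Quantile normalization kept 9 called higher with a median of 0.73, where 5532 of the 19331 tested genes were called higher. H2-DMb2, a chain of the peptide-loading molecule H2-DM, was at 320.2, 309 and 299 RPKM in WT mTEChi and 381, 391 and 368 in KO mTEChi. In mTEClo it was at 127, 109 and 136 in WT and 70.1, 82.6 and 67.5 in KO. It rose in the former gate and fell in the latter without overlap (interaction 1.05, SE 0.13, adjusted p = 4e-05). Ciita, the transcriptional master regulator of these genes, followed the same order with 0.91, and H2-Oa and H2-DMb1 gave 1.03 and 0.94. Cd74, the invariant chain, was at 8228 to 8552 RPKM in WT mTEChi and 11258 to 11868 in KO mTEChi, but its estimate of 0.77 was not called (SE 0.47, adjusted p = 0.18). It was called at 0.99 when centred on housekeeping genes and at 0.95 with median ratio scaling, and at 0.77 without a variance trend.

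MHC class I genes moved less. Of 15 tested, 4 were called higher (26.7%, against 8.49% of all tested genes) and none lower (against 47.5%). The count of higher calls was 2 without KO mTEChi replicate 1, KO mTEClo replicate 1 or 3, or WT mTEClo replicate 2 or 3. Tapbp, the tapasin that loads peptides, was at 139 to 148 RPKM in WT mTEChi and 218 to 226 in KO mTEChi, with 103 to 118 in the mTEClo libraries (interaction 0.73, SE 0.08, adjusted p = 1.4e-05). Psme1 and Nlrc5, at 0.32 and 0.25, lost their calls with all 18 libraries in the fit. Psme1 also lost it under quantile normalization (0.16), and Nlrc5 without a variance trend and, at 0.19 to 0.24, without KO mTEChi replicate 1 or 3, KO mTEClo replicate 1 or 3, WT mTEChi replicate 1, or WT mTEClo replicate 2 or 3. B2m was not called (0.37, adjusted p = 0.52). It was called at 0.59 when centred on housekeeping genes and at 0.37 without a variance trend, and quantile normalization made it -0.32.

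Markers of mTEC stages split by gene. Of 14 mature mTEC genes, 3 were called lower (21.4%, against 47.5% of all tested genes) and 6 higher (42.9%, against 8.49%). Their median was 0.24. Ccl22, a chemokine for regulatory and helper T cells, was at 78.8, 82.6 and 81.2 RPKM in WT mTEChi and 29.2, 25 and 23.4 in KO mTEChi, against 3.82 to 4.82 in WT mTEClo and 6.56 to 8.35 in KO mTEClo. It was thus lower in one gate and higher in the other (interaction -2.36, SE 0.15, adjusted p = 2.8e-07). Tnfrsf11a, the receptor RANK, rose in KO mTEChi and fell in KO mTEClo (0.94), a call lost with all 18 libraries in the fit.

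Among 11 immature mTEC and progenitor genes, 6 were called lower (54.5%, against 47.5% of all tested genes) and 3 higher (27.3%, against 8.49%). The median was -1.02. Krt15, a keratin of basal epithelial cells, was at 18.7, 23.3 and 15.6 RPKM in WT mTEChi and 1.23, 2.53 and 1.71 in KO mTEChi, against 13.3, 13.0 and 11.3 in WT mTEClo and 53.6, 59.8 and 64.0 in KO mTEClo. KO mTEChi had the lowest and KO mTEClo the highest libraries (interaction -5.59, SE 0.29, adjusted p = 7.8e-08). Bpifa1, a secreted airway protein, gave -4.27 and likewise reversed between the gates. Krt5, another basal keratin, fell in both gates, more in mTEChi (interaction -1.69). Ly6a was not called (-0.38, adjusted p = 0.063), although it was under quantile normalization (-0.65) and without KO mTEChi replicate 2 (-0.51) or KO mTEClo replicate 1 (-0.48).

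Of 13 chemokine genes, 8 were called lower (61.5%, against 47.5% of all tested genes) and 3 higher (23.1%, against 8.49%). Their median was -0.99. Xcl1, which attracts dendritic cells, was at 12.3, 20.2 and 13.6 RPKM in WT mTEChi and 0.186, 0.333 and 0.255 in KO mTEChi, while all mTEClo libraries lay between 0.0487 and 0.187. Only WT mTEChi held it at more than 1 RPKM (interaction -5.32, SE 0.41, adjusted p = 1e-06). Cxcl16 went the other way with 0.91, higher in KO mTEChi and lower in KO mTEClo. Of 18 genes of NF-kB and TNF receptor signalling, 4 were called lower (22.2%, against 47.5% of all tested genes) and 8 higher (44.4%, against 8.49%). Their median was 0.25. Tnfaip3, the inhibitor A20, was at 31.6, 24.5 and 29.6 RPKM in WT mTEChi and 15.9, 19.7 and 19.7 in KO mTEChi, but at 75.4 to 80.4 in WT mTEClo and 131 to 159.6 in KO mTEClo. Its interaction was -1.57 (SE 0.16, adjusted p = 6.4e-06), and Map3k14 and Traf6, kinase and adaptor of the pathway, gave 0.71 and 0.60.

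Among genes of proteins reported to work with Aire, 12 of 23 were called lower (52.2%, against 47.5% of all tested genes) and 2 higher (median -0.27, against -0.38). In mTEClo 1 was called higher and none lower, where 13.2% and 14.2% of all tested genes were. Chd4, a chromatin remodeller, was at 35.0 to 38.6 RPKM in WT mTEChi and 20.9 to 21.5 in KO mTEChi, with 45.5 to 49.6 over the 6 mTEClo libraries (interaction -0.72, SE 0.07, adjusted p = 6.8e-06). Xrcc5, the Ku80 subunit of a DNA repair complex, gave -1.33, and Crebbp, an acetyltransferase, 1.10. Under quantile normalization 5 of the 23 were called lower, where 4170 of the 19331 tested genes were. The count of higher calls was 1 without KO mTEClo replicate 2 or 3, WT mTEChi replicate 3, or WT mTEClo replicate 1 or 3.

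Lists of peripheral tissue genes had among the lowest medians, to which members selected by the filter contribute. Of those tested, 16 of 17 lung and airway, 22 of 26 stomach and intestine, 21 of 25 liver plasma protein and 19 of 23 pancreatic acinar genes were called lower, with medians of -3.29, -2.98, -2.44 and -3.13. Of these lists 3, 7, 7 and 12 genes passed the filter through WT mTEChi, as defined above, and so were selected for being high there. Their calls and their part in the medians support nothing. The same holds for the 7 of 11 listed major urinary protein genes that were tested, each of which passed in this way, and for 6 of the 12 tested of 13 listed kidney genes. Quantile normalization left 16 lung, 21 stomach, 15 liver and 15 acinar genes called lower, and it called 4170 of the 19331 tested genes lower.

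Pgc, a gastric pepsinogen, was at 54.6, 60.2 and 49.5 RPKM in WT mTEChi and 0.128, 0.191 and 0.229 in KO mTEChi. It also fell in mTEClo, from 0.470, 0.315 and 0.579 to 0.0144, 0.0176 and 0.0119, so the genotypes were apart in both gates. The mTEChi fall of 7.61 and the mTEClo fall of 2.25 gave an interaction of -5.37 (SE 0.28, adjusted p = 8e-08). Reg2 in the acinar list and Slc12a3, the thiazide-sensitive transporter of the kidney, gave -6.05 and -5.08. Among the pancreatic list, Reg3b was not called, with WT mTEClo libraries at 0.703, 3.53 and 2.26 RPKM and KO mTEClo libraries at 0.104, 0.0317 and 0 (interaction -1.80, adjusted p = 0.27). With a pseudocount of 1 it was called at -2.71.

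**Figure D5:**
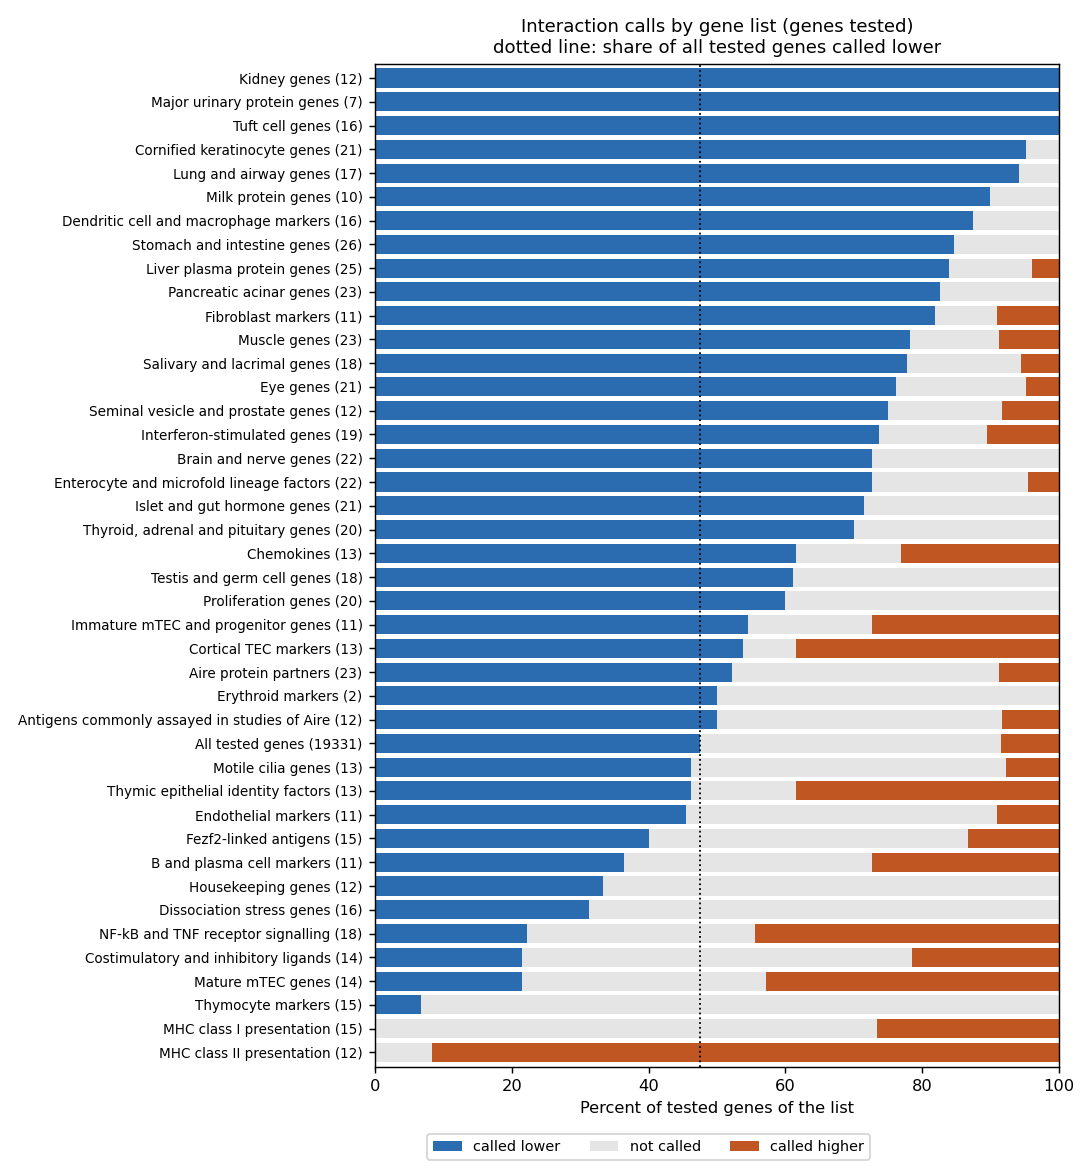
Percent of the tested genes of each list called lower (blue), not called (grey) and called higher (orange) in the interaction, with the number of genes tested in brackets and all tested genes as a row of their own. The dotted line is the 47.5% of all tested genes called lower. Tuft genes reach 100% and MHC class II genes 0%. The 100% of major urinary protein and kidney genes is over members of which 7 of 7 and 6 of 12 passed the filter through WT mTEChi. So did 8 of 12 seminal vesicle and prostate, 12 of 23 pancreatic acinar and 6 of 10 milk protein genes, and smaller shares of the other tissue lists.

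The lung and airway list also held a pair of genes that were most abundant in KO mTEClo. Chi3l3, a chitinase-like secreted protein, was at 33.5, 24.8 and 25.2 RPKM in WT mTEClo and 226, 257 and 272 in KO mTEClo. It was at 12.2, 12.6 and 9.35 in WT mTEChi and 3.65, 5.31 and 5.41 in KO mTEChi. The difference was 3.18 in mTEClo and -1.24 in mTEChi (interaction -4.42, SE 0.24, adjusted p = 8.4e-08). Its neighbour Chi3l4 was at 29.9 to 35.9 RPKM in WT mTEClo and 249.8 to 343 in KO mTEClo (interaction -3.90). The sequences of these genes are close to each other, so reads may be split between them and their values are not independent.

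Muscle genes showed both components. Of 23 tested, 18 were called lower (78.3%, against 47.5% of all tested genes) and 2 higher (8.70%, against 8.49%), with a median of -1.91. Lower in mTEChi and higher in mTEClo were 11, against 5.16% of all tested genes. In mTEClo 14 rose and none fell (median 0.87), against 13.2% and 14.2% of all tested genes. Myl1, a myosin light chain, was at 1.39, 1.63 and 0.932 RPKM in WT mTEClo and 9.79, 9.87 and 6.90 in KO mTEClo, and at 1.18 to 1.66 and 0.239 to 0.472 in WT and KO mTEChi. Neither gate overlapped, and the interaction was -4.32 (SE 0.35, adjusted p = 1.4e-06). Tnnt3, fast troponin T, gave -4.36, and Actc1, cardiac actin, -5.56. Myh4, a myosin heavy chain, rose in both gates and was not called (-1.03, adjusted p = 0.061), although it was with a pseudocount of 0.01 (-1.68), with the replicate number as a block (-1.03), and without KO mTEClo replicate 3 (-1.33) or WT mTEClo replicate 3 (-1.18). With a pseudocount of 1 its estimate was 0.33.

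In other tissue lists the share of lower calls ran from 61.1% to 90.0%. It is not read against the 47.5% of all tested genes, since members that passed through WT mTEChi were selected for being high there. Such members were 3 of 21 islet and gut hormone, 6 of 18 salivary and lacrimal and 7 of 21 eye genes. They were also 3 of 22 brain and nerve, 6 of 10 milk protein and 8 of 18 testis and germ cell genes. Of 21 islet and gut hormone genes 15 were called lower, of 18 salivary and lacrimal genes 14, of 21 eye genes 16, of 22 brain and nerve genes 16, of 10 milk protein genes 9 and of 18 genes of testis and germ cells 11. Medians of these lists, which include the selected members, lay between -3.58 and -1.59. Gip, an incretin hormone, was at 20.6 to 26.4 RPKM in WT mTEChi and at most 0.0708 in KO mTEChi, and at 0.269 to 0.487 in WT mTEClo and 0 in every KO mTEClo library (interaction -5.34). Tac1, the precursor of substance P, rose in KO mTEClo from 4.07, 4.90 and 5.03 to 12, 9.12 and 17.9 RPKM and fell in KO mTEChi (interaction -5.24). Thyroid, adrenal and pituitary genes, of which 8 of 20 passed through WT mTEChi, had 14 of 20 called lower. Seminal vesicle and prostate genes, of which 8 of 12 passed in this way, had 9 of 12 lower and 1 higher. Pth, parathyroid hormone, was not called in the list of thyroid, adrenal and pituitary genes (adjusted p = 0.62). Its mTEClo libraries ran from 19.8 to 317 RPKM in WT and from 0.0819 to 60.0 in KO. It was called at -4.11 (adjusted p = 0.012) without KO mTEClo replicate 1.

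The 12 tested antigens that work on Aire often measures did not share a pattern. Of these, 6 were called lower (50%, against 47.5% of all tested genes) and 1 higher (8.33%, against 8.49%), and 5 were not called. These shares are near those of all tested genes. Of the 12, 3 passed the filter through WT mTEChi and so were selected for being high there. Ins2, insulin, was at 15.8, 19.7 and 11.4 RPKM in WT mTEChi and 0.0511, 0.0140 and 0 in KO mTEChi, and at 0.609, 0.0772 and 0.248 in WT mTEClo and 0 in all 3 KO mTEClo libraries. Both gates were lower in KO, and the interaction was -5.19 (SE 0.56, adjusted p = 1.3e-05). Spt1, a salivary protein, fell by 7.82 in mTEChi and by 3.37 in mTEClo (interaction -4.45). S100a8 (-2.71), Obp1a (-3.64), Tff3 (-3.10) and Rbp3 (-1.43) were also lower, with Tff3 not called at a pseudocount of 0.01 and Rbp3 not called under quantile normalization. The mTEClo difference of Obp1a was 0, so its estimate is its mTEChi difference alone. Crp, C-reactive protein, was called higher, since it fell more in mTEClo, from 29.5, 28.4 and 30.2 RPKM to 8.48, 9.47 and 4.78, than in mTEChi (interaction 1.13, SE 0.32, adjusted p = 0.01).

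Csn2, beta-casein, had the same difference in both gates. It was at 689, 762 and 710.3 RPKM in WT mTEChi and 1266, 1358 and 1236 in KO mTEChi, and at 11.8, 17.8 and 14.7 in WT mTEClo and 35.1, 30.4 and 16.6 in KO mTEClo. The differences of 0.84 and 0.83 left an interaction of 0.00 (SE 0.32, adjusted p = 0.99), with the largest shift among the scalings to -0.40 under quantile normalization. Gad1, Fabp9, Resp18 and Ttr were not called, although Gad1 was, at -0.36, with a pseudocount of 1. The estimate for Fabp9 was 0.21, and -0.74 without KO mTEClo replicate 3, where it was called.

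Genes linked to Fezf2, a second regulator of antigens in mTEC, gave 6 of 15 called lower (40%, against 47.5% of all tested genes). There were 2 called higher (13.3%, against 8.49%), and the median was -0.38, against -0.38 for all genes. The count of higher calls was 1 without any 1 library other than KO mTEClo replicate 1 and WT mTEClo replicate 1. Fabp7, a fatty acid binding protein of the brain, was at 1.06, 1.14 and 0.683 RPKM in WT mTEClo and 6.27, 4.81 and 3.93 in KO mTEClo, and at 7.20 to 10.2 and 4.06 to 6.77 in WT and KO mTEChi (interaction -3.04, SE 0.33, adjusted p = 1.3e-05). Apob and Apoa2, which encode apolipoproteins, gave -3.21 and -2.44 from falls in mTEChi. Of 22 genes of enterocyte, microfold and other lineages, mostly transcription factors, 16 were called lower (72.7%, against 47.5% of all tested genes). There was 1 called higher (4.55%, against 8.49%), and the median was -1.18. The higher call was lost without KO mTEClo replicate 2 or 3, WT mTEChi replicate 1 or 3, or WT mTEClo replicate 2 or 3. Cdx2, an intestinal factor, was at 3.43, 3.13 and 2.52 RPKM in WT mTEChi and 0.0216, 0.0116 and 0.0130 in KO mTEChi, with 0.176 to 0.422 over the mTEClo libraries (interaction -4.76). Foxi1 and Myod1, factors of ionocytes and of muscle, gave -4.08 and -3.22.

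Of 19 interferon-stimulated genes, 14 were called lower (73.7%, against 47.5% of all tested genes) and 2 higher (10.5%, against 8.49%). Their median was -1.0. In mTEClo 17 of the 19 fell as well, against 14.2% of all tested genes. Oas2, an antiviral enzyme, was at 3.75, 4.13 and 3.35 RPKM in WT mTEChi and 0.240, 0.301 and 0.294 in KO mTEChi, against 20.2 to 25 in WT mTEClo and 15.2 to 19.7 in KO mTEClo (interaction -2.95, SE 0.18, adjusted p = 1.7e-07). Ifit3 gave -2.39. Ifit1 was an exception with 1.36, at 36.9 to 42.8 RPKM in WT mTEChi and 75.5 to 82.5 in KO mTEChi but 64.2 to 69.2 in WT mTEClo and 46.4 to 56.7 in KO mTEClo. Proliferation genes were called lower in 12 of 20 (60.0%, against 47.5% of all tested genes) and higher in none (median -0.96). Ccnb2, a mitotic cyclin, was at 7.82 to 9.06 RPKM in WT mTEChi and 2.45 to 3.49 in KO mTEChi, and the mTEClo libraries overlapped between 1.63 and 2.75 (interaction -1.34, SE 0.25, adjusted p = 6.3e-04).

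Markers of other cell types moved with these groups. Dendritic cell and macrophage markers were called lower in 14 of 16 (87.5%, against 47.5% of all tested genes) and higher in none (median -1.49). Their summed level was 556 to 593 RPKM in WT mTEChi and 399 to 429 in KO mTEChi, but 53.9 to 68.8 in WT mTEClo and 90.4 to 160.1 in KO mTEClo, with none at 0 throughout a group. Emr1, which encodes the macrophage protein F4/80, was at 4.76, 5.07 and 5.16 RPKM in WT mTEChi and 0.123 to 0.256 in KO mTEChi, with all mTEClo libraries between 0.0888 and 0.352 (interaction -4.79). Cd68 was higher in KO in both gates and not called (0.05). Fibroblast markers were called lower in 9 of 11 (81.8%, against 47.5% of all tested genes) and higher in 1 (9.09%, against 8.49%). They summed to 76.1 to 88.5 RPKM in WT mTEChi, 32.2 to 37.9 in KO mTEChi, 377 to 499.9 in WT mTEClo and 313 to 372 in KO mTEClo, and Twist2 was at 0 in every KO library of both gates. Col1a1, a type I collagen chain, gave -5.81.

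Thymocyte markers summed to 85.5 to 125 RPKM in WT mTEChi and 81.2 to 106 in KO mTEChi, and to 25.4 to 62.1 and 22.5 to 51.9 in WT and KO mTEClo. They overlapped in both gates, and 1 of 15 was called lower (6.67%, against 47.5% of all tested genes). This was Ptcra, whose -1.18 became 0.53 under quantile normalization. Without WT mTEClo replicate 3, 7 of the 15 were called lower, and 2 without KO mTEChi replicate 2, KO mTEClo replicate 3 or WT mTEChi replicate 1. Endothelial markers gave 5 of 11 lower (45.5%, against 47.5% of all tested genes) and 1 higher (9.09%, against 8.49%). Their median was -1.02, but 0.53 under quantile normalization, and 8 were lower without KO mTEClo replicate 1. Cortical TEC markers gave 7 of 13 lower (53.8%, against 47.5% of all tested genes) and 5 higher (38.5%, against 8.49%). Their median was -0.54, and -0.01 under quantile normalization. The part of such cells in the results above was not tested.

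Housekeeping and stress genes give the scale of change in genes chosen for other reasons. Of 12 housekeeping genes 4 were called lower (33.3%, against 47.5% of all tested genes) and none higher (median -0.23). Actb was at 673 to 825 RPKM in mTEChi and 577 to 746 in mTEClo without a call (-0.30, adjusted p = 0.16). It was called at -0.84 under quantile normalization. Of 16 genes induced by tissue dissociation 5 were called lower (31.25%, against 47.5% of all tested genes) and none higher (median -0.30). In KO mTEClo 8 of the 16 were higher, against 13.2% of all tested genes. Dnajb1, a heat shock co-chaperone, was at 80.2 to 96.0 RPKM in WT mTEClo and 137 to 178 in KO mTEClo, with 42.7 to 51.2 over the mTEChi libraries (interaction -0.87, SE 0.15, adjusted p = 3.1e-04). Their part in the mTEClo differences was not tested.

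The cTEC libraries, which do not enter the interaction, showed few genotype calls. KO minus WT in cTEC was called lower for 6 genes (0.031%) and higher for 12 (0.0621%), with 1396 and 2533 at an unadjusted p under 0.05. The genes called lower in the interaction had a median cTEC difference of 0.00 and those called higher one of 0.02. Of the genes named here, Chi3l4 and Sprr1a were called in cTEC. Chi3l4 was at 12.6, 9.47 and 9.83 RPKM in WT cTEC and 190.4, 196 and 154 in KO cTEC, a difference of 4.07 (SE 0.15, adjusted p = 0.017). Sprr1a was at 7.19, 9.47 and 7.91 RPKM in WT cTEC and 75.1, 57.2 and 46.4 in KO cTEC, a difference of 2.83 (SE 0.21, adjusted p = 0.045). Leaving out KO cTEC replicate 2 ended every cTEC call, as did the replicate number as a block, and leaving out KO cTEC replicate 3 gave 49 higher calls. Higher calls, the direction of Chi3l4 and Sprr1a, also numbered 0 without WT cTEC replicate 2 or 3. They numbered 1 without WT cTEC replicate 1 and 6 without KO cTEC replicate 1.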

How the data were processed

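RNA of sorted mouse thymic epithelial cells was sequenced in 18 libraries. The deposited tables give, per gene, RPKM computed by the authors and a signal column that holds aligned bases summed over the gene, as the values show; replicates were not pooled. CASAVA 1.8.2 and the mm10 build are named per the submitters' processing notes, while the sources used here do not give aligner settings or annotation. Groups come from the sample titles. A pseudocount of 0.1 was added to RPKM before log2. Group means of the 12 mTEC libraries were fitted with limma 3.58.1 in R 4.3.3, with a variance trend and Benjamini-Hochberg adjustment over all 19331 genes tested, and an adjusted p under 0.05 is called. The 6 cTEC libraries were fitted apart. All fold changes are on the log2(RPKM + 0.1) scale, which understates changes of low genes. The fit was tested on simulated data.

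The members and gene lists were chosen with earlier results of these data known. Named genes are Aire, the 12 largest falls and rises, the 6 smallest p-values in each direction beyond these, the 5 largest genes called in opposite directions in the gates, and the 5 largest mTEClo differences each way with a mTEChi difference under 0.5. They must be called, reach 1 RPKM in the highest group, and be no predicted gene, small RNA or receptor segment. Of each of 41 lists, up to 3 called members with the smallest p and the most abundant member not called could be named, with all tested antigens of the assayed list; a few such genes are not reported here. Of 694 list entries, 676 were in the tables and 653 were tested.

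Alternatives were pseudocounts of 0.01 and 1, no filter and a filter of 1 RPKM, quantile, housekeeping and median ratio scaling, all 18 libraries, no variance trend, the replicate number as a block, and each library left out in turn. Depth of 4.54 to 18.1 Gb limits the precision of low values, and no interval was drawn from it because aligned bases are not read counts. Promoter runs come from RefSeq's table without chromosome 18. In it 14582 of the tested genes had an entry with a start site at most 5000 bases from that of the gene.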

Additional observations from a re-analysis of the deposited data

Results flagged for a closer look

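Among the named genes, 14 were at least 2-fold different between KO and WT in both gates, in opposite directions, with the difference between the gates itself called by limma. Every called gene has a tested difference between the gates, so these are the part of them with both differences large. The named genes were chosen in part for opposite calls in the gates and for extreme estimates, so their number follows from that choice. Over all tested genes, opposite calls of any size were lower in mTEChi and higher in mTEClo for 997 (5.16%) and the reverse for 213 (1.10%). Interaction estimates of those lower in KO mTEChi and higher in KO mTEClo were -8.13 for Crisp3, -6.96 for Sln, -6.50 for Csn1s1, -5.59 for Krt15 and -5.56 for Actc1. They were -5.24 for Tac1, -4.42 for Chi3l3, -4.36 for Tnnt3, -4.32 for Myl1, -2.98 for Krt77, -2.54 for Grp and -2.42 for Sprr1a. In the other direction, estimates were 2.34 for Lrp1b and 2.29 for Calcrl. The rise in KO mTEClo was larger in size than the fall in KO mTEChi for Chi3l3 (3.18 against -1.24), Tnnt3 (2.69 against -1.67), Myl1 (2.67 against -1.65) and Sprr1a (1.30 against -1.12). Groups of 3 libraries are too small for a check of single outlying samples.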

How the results depend on the processing

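Quantile normalization gave 4170 lower and 5532 higher interaction calls, and 5333 and 6931 for KO minus WT in mTEChi. Centring on housekeeping genes gave 2898 higher interaction calls and 4617 lower calls in mTEClo, and median ratio scaling 2751 higher interaction calls and 3980 higher calls in mTEChi. With all 18 libraries in the fit, mTEClo had 1563 lower and 1542 higher calls. In cTEC, lower calls numbered 22 with a pseudocount of 0.01 and 1 with a pseudocount of 1, and quantile normalization gave 16 lower and 24 higher. The cause was not tested.

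Under quantile normalization the mTEChi difference turned to 0.81 for Il1rl1, 0.71 for Ctnna2, 0.51 for Islr, 0.12 for Golm1 and 1.08 for Tspan4. Likewise the interaction turned to -0.28 for Krt8 and 0.53 for Ptcra, and the list median to 0.71 for motile cilia genes and 0.53 for endothelial markers. Fabp9 ranged from -0.74 without KO mTEClo replicate 3 to 0.72 without KO mTEClo replicate 1. Of 163 called named genes, 19 lost the call in at least 1 of 22 settings.

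Leaving out each library in turn gave 8529 to 9140 lower and 1444 to 1632 higher interaction calls. The ranges were 10351 to 11245 and 2039 to 2415 in mTEChi, 1804 to 2691 and 1960 to 2731 in mTEClo, and 0 to 7 and 0 to 49 in cTEC. The interaction of detected genes ranged from -3053.83 to -2950.33, and was -1700 above 0 RPKM and -2516 at 1 RPKM.

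With the replicate number as a block, the interaction had 9203 lower and 1648 higher calls, and cTEC 0 and 0. The labels state no source shared by same-numbered libraries. Their deviations correlated at -0.11 to 0.136 over 18 pairs, 2 of them over 0.1. For differently numbered libraries the range was -0.106 to 0.088 over 36 pairs. Between the gates within a genotype, same-numbered libraries correlated at 0.039, 0.005 and 0.136 in KO and at 0.04, 0.135 and 0.095 in WT. The block joins both genotypes, and a pairing of the gates within each genotype was not modelled.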

Other observations

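Genes of thymic epithelial identity were mixed, with 6 of 13 called lower (46.2%, against 47.5% of all tested genes) and 5 higher (38.5%, against 8.49%). Without KO mTEChi replicate 1, 3 were called higher. Pax1, a factor of thymus development, was at 20.7, 19.6 and 19.4 RPKM in WT mTEChi and 11.1, 10.6 and 10.6 in KO mTEChi, against 62.9 to 73.0 in WT mTEClo and 73.9 to 82.1 in KO mTEClo (limma interaction -1.05, SE 0.09, adjusted p = 1.8e-06). Spib, a factor of mTEC and lymphoid cells, fell in KO mTEChi and rose in KO mTEClo (-0.96). Of 14 costimulatory and inhibitory ligands and receptors, 3 were called lower (21.4%, against 47.5% of all tested genes) and 3 higher (21.4%, against 8.49%). Without KO mTEClo replicate 1, 5 were called higher. Tnfrsf14, the receptor HVEM, was at 29.8 to 36.3 RPKM in WT mTEChi and 52.1 to 57.9 in KO mTEChi, with 11.9 to 16.1 over the mTEClo libraries (0.96). Cd274, which encodes PD-L1, was not called (-0.22, adjusted p = 0.23).

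Of 13 motile cilia genes 6 were called lower (46.2%, against 47.5% of all tested genes) and 1 higher (7.69%, against 8.49%). Without WT mTEClo replicate 1, 2 were called higher. Tekt1, a structural protein of the cilium, was at 3.23, 3.27 and 2.27 RPKM in WT mTEChi and 0.115, 0.0451 and 0.010 in KO mTEChi, while the mTEClo groups ran from 0.982 to 1.46 in WT and 0.581 to 0.966 in KO (-3.83). Calls were spread over the genome, with the share of lower calls between 40.3% on chromosome 13 and 53.3% on chromosome 6.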
